A study of Homo sapiens with 8 samples.

Results

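The chromobox genes encode readers of methylated histone H3, and CBX5 was set beside CBX1, CBX2, CBX3, CBX6, CBX7 and CBX8 as RNAs bound by IGF2BP1. The members are the genes of one family, and CBX5 was chosen by its measured number of 3’UTR peaks in these data, so that number is given as a description. Peaks counted when they overlapped one of these 7 genes by at least 1 nt on the same strand. They were 59 of the 22311 peaks listed for cells given DMSO and 62 of the 22123 peaks listed for cells given AVJ16, and CBX5 alone held 52 and 53 of them. The cells were wild-type H1299, a human lung carcinoma line, kept for 24 h with 1.5 µM AVJ16, a small molecule inhibitor of IGF2BP1, or with 0.01% DMSO, the solvent control. They were then crosslinked with 254 nm UV light at 400 mJ/cm2. In eCLIP, RNA crosslinked to the immunoprecipitated (IP) protein is sequenced, and a size-matched input (SMInput) library of the same lysate, with no immunoprecipitation, gives the background. Each treatment had 2 IP and 2 SMInput libraries, prepared in 2 batches from one thaw of cells, and the authors combined both replicates in 1 list of peaks.

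HP1 proteins (CBX1, CBX3 and CBX5, also called HP1β, HP1γ and HP1α) bind histone H3 methylated at lysine 9 and pack chromatin into heterochromatin. The Polycomb chromobox proteins (here CBX2, CBX6, CBX7 and CBX8) bring Polycomb repressive complex 1 to histone H3 methylated at lysine 27. IGF2BP1 is an RNA binding protein of embryonic and tumor cells that binds mRNAs mainly in the 3’UTR and is known to protect many of them from decay.

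Each peak carries the log2 fold enrichment of IP over SMInput reads and a −log10 p-value, both computed by the authors. The lowest enrichment in either list was 3.00 on the log2 scale (8-fold), so a site under that limit is missing whatever its level. The lists hold no read counts and no value per replicate. The depth of the libraries is therefore unknown here, no error between replicates can be given, and no test between the treatments was made. Fewer IP reads and more input reads at a peak cannot be told apart. Intervals are 95% Wilson intervals for shares and order-statistic intervals for medians, and they cover counting error over peaks only. They take peaks as independent, although many CBX5 peaks touch each other.

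The sequences below show what lay under the most enriched peaks of CBX5, under the DMSO peaks of CBX2 and CBX6, and under the CBX5 peaks with the largest difference between the lists in each direction. Each is the RNA strand of GRCh38, 5′ to 3′, cut to the middle 30 nt where the peak was longer. Capitals mark CAUA, CAUC or CAUU, which make up the CAUH pattern known for IGF2BP proteins.
CBX5 strongest DMSO peak, chr12:54232418-54232447, minus strand: cacagggguguuguugugaggCAUUguaaa
CBX5 next, chr12:54231271-54231300, minus strand: gguuucuuucagcacucuguacugucccaa
CBX5 next, chr12:54232473-54232502, minus strand: uuucaaugccucaguucccCAUCugucaaa
CBX5 next, chr12:54240883-54240908, minus strand: cuuucCAUUccuCAUAuuuagacugu
CBX5 next, chr12:54241153-54241182, minus strand: cccucuguuguuCAUCcucacuCAUCcucc
CBX5 lowest difference, chr12:54231700-54231729, minus strand: uagugucugcagucugaaccuaaccuugac
CBX5 highest difference, chr12:54241209-54241228, minus strand: cucuacccaggagaauacag
CBX2 DMSO peak, chr17:79787383-79787412, plus strand: caaucccaaaguuugaaucugcagauaccu
CBX6 DMSO peak, chr22:38864946-38864975, minus strand: cugccugggagcugaggcacccgugccagu
The pattern was present in 4 of the 5 most enriched CBX5 sites as shown and in none of the other sequences. These sequences are few and cut short, and whether the pattern goes with enrichment was not tested. In the wider windows described below, it was present in 63.5% of the CBX5 windows with DMSO. The shares were 62.7% over all 3’UTR windows of that list and 49.3% over all windows of the CBX5 3’UTR.

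All CBX5 peaks lay in its 3’UTR, and none in the coding sequence, the 5’UTR or an intron. CBX5 (ENSG00000094916) lies on chromosome 12, minus strand, between 54230942 and 54280133, and the 3’UTR of its main transcript, CBX5-201, is a single stretch of 10813 nt from 54230942 to 54241754. With DMSO the 52 peaks formed 31 separate sites after touching peaks were joined, and they covered 2743 nt (25.4%) of this 3’UTR. With AVJ16 the 53 peaks formed 32 sites and covered 2288 nt (21.2%). The log2 fold enrichment ran from 3.09 to 5.90 with DMSO, with a median of 3.74, and from 3.01 to 5.48 with AVJ16, with a median of 3.43. Values of 4 or more were reached by 13 DMSO peaks and by 7 AVJ16 peaks.

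**Figure D1:**
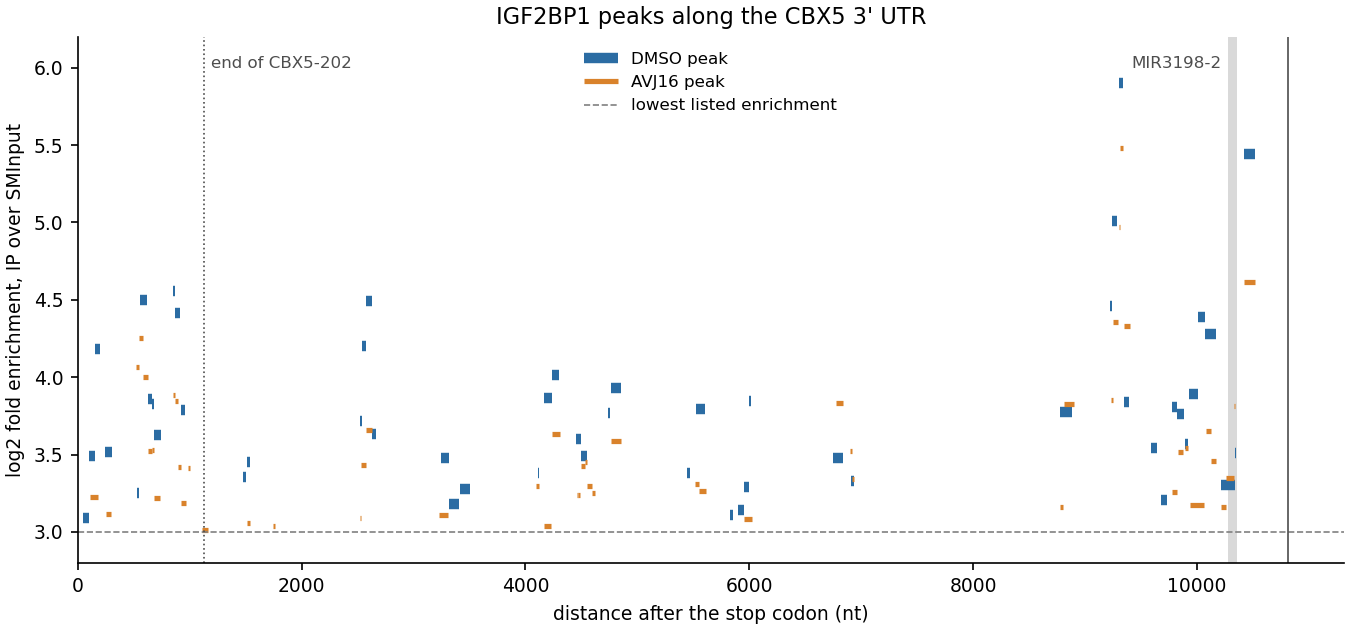
Peaks of both lists along the CBX5 3’UTR, with the distance after the stop codon in nt on the x axis and the log2 fold enrichment of IP over SMInput on the y axis. Each bar spans 1 peak (thick blue, DMSO; thin orange, AVJ16), the dotted line is the end of a shorter annotated transcript, the solid line the end of the 3’UTR, and the grey band MIR3198-2. The highest bars of both lists, 5.90 with DMSO and 5.48 with AVJ16, stand in the site 9305 to 9338 nt after the stop codon, and most blue bars lie above the orange ones.

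The peaks ran the whole length of the 3’UTR, as the map of CBX5 peaks shows. Joined over both lists they made 34 sites, the first starting 46 nt after the stop codon and the last ending 295 nt before the 3′ end. Both lists held 25 of these sites, the DMSO list alone 6 and the AVJ16 list alone 3. The longest site spanned 243 nt, and the median length was 80.5 nt. Sites were unevenly spaced, with 6 gaps of more than 500 nt, and the largest gap of 1839 nt, without a peak in either list, ended at nt 8776. From nt 1 to 3604 there were 21 DMSO peaks, from nt 3605 to 7208 there were 15, and from nt 7209 to the end 16. The median DMSO enrichments of these stretches were 3.63, 3.49 and 3.82. The 3 most enriched DMSO peaks all lay in the last stretch.

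The strongest CBX5 site lay 9305 to 9338 nt after the stop codon (chr12:54232417-54232450). Its DMSO peak was enriched by 5.90 on the log2 scale, with a −log10 p of 28.6. The AVJ16 list split the site into 2 peaks, and the more enriched one had 5.48 and 27.0. The next DMSO peak, from nt 10421 to 10518, had an enrichment of 5.45 with DMSO and 4.62 with AVJ16. Just before the strongest site, a peak from nt 9246 to 9289 had 5.01 with DMSO and 4.36 with AVJ16. So the same 3 places ranked first in both lists, each with the lower value in the AVJ16 list.

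GENCODE annotates a shorter transcript whose 3’UTR ends 1130 nt after the stop codon. This shared first stretch held 12 DMSO peaks and 14 AVJ16 peaks. The other peaks lay in sequence that only CBX5-201 contains among the annotated transcripts of the gene. A microRNA hairpin, MIR3198-2, is annotated inside the 3’UTR on the same strand (chr12:54231397-54231476), and 2 peaks of each list overlapped it, covering 68 nt of its 80 nt with DMSO and 67 nt with AVJ16. In each list the shorter of these peaks lay wholly inside the mature miR-3198. It spanned 9 nt with DMSO (log2 fold enrichment 3.51) and 15 nt with AVJ16 (3.82). The mature sequence from RefSeq (GRCh38.p14), with its seed in capitals, contains the sequence under the AVJ16 peak.
hsa-miR-3198: gUGGAGUCcuggggaauggaga
CBX5 AVJ16 peak, chr12:54231410-54231424, minus strand: aguccuggggaaugg
Reads from the CBX5 mRNA and from the microRNA precursor cannot be told apart in the lists. A second hairpin with the same mature sequence, MIR3198-1, lies on chromosome 22.

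For the comparison of the treatments, the partner of a DMSO peak was the AVJ16 peak with the largest overlap. Of the 52 CBX5 DMSO peaks, 43 had a partner, or 82.7% (interval 70.3% to 90.6%), against 66.2% of all DMSO peaks. In the opposite direction, 49 of the 53 AVJ16 peaks overlapped a DMSO peak, or 92.5% (82.1% to 97.0%), against 70.8% of all AVJ16 peaks. The 9 DMSO peaks without a partner had a log2 fold enrichment from 3.09 to 3.77 and a median of 3.27. The 4 AVJ16 peaks without a partner had values from 3.01 to 3.41. By bases, 72.6% of the CBX5 sequence covered with DMSO was also covered with AVJ16, and 87.0% of that covered with AVJ16 was covered with DMSO.

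At the shared CBX5 peaks the enrichment was mostly lower with AVJ16. The median difference (AVJ16 minus DMSO, on the log2 scale) was −0.39 (interval −0.60 to −0.26), or a ratio of 0.761, while the median over all shared peaks of the lists was −0.06. The differences ran from −1.22 to 0.81 with an SD of 0.42 across peaks, and 35 of 43 lay below 0. Beyond a limit of 0.5, 18 CBX5 peaks were lower, or 41.9% (28.4% to 56.7%), against 20.1% of all shared peaks. Only 1 was higher, or 2.33% (0.412% to 12.1%), against 12.6% of all shared peaks. Requiring a difference of 1 left 1 lower and no higher CBX5 peak. The 43 DMSO peaks had only 38 different AVJ16 partners, and the 52 CBX5 DMSO peaks formed only 31 sites. The pairs behind these intervals are therefore not independent, and the intervals may be too narrow. By site, only 7 of 25 were lower by more than 0.5, as given below. With each peak used once, 15 of 38 pairs were lower and 1 was higher by more than 0.5.

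**Figure D2:**
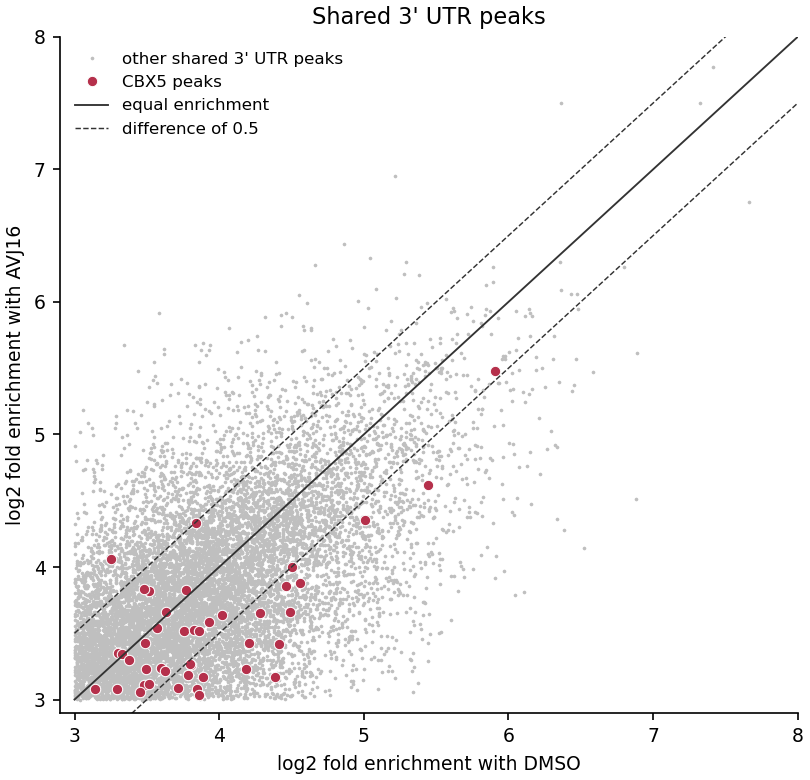
Log2 fold enrichment with DMSO (x axis) and with AVJ16 (y axis) at shared 3’UTR peaks, 1 point per DMSO peak and its AVJ16 partner. Red points are the 43 shared CBX5 peaks and grey points the other shared 3’UTR peaks; the solid line marks equal enrichment and the dashed lines a difference of 0.5. Most red points lie under the solid line, 18 of them under the lower dashed line and 1 above the upper one.

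The largest difference below 0 was at the peak from nt 10009 to 10072 (chr12:54231683-54231746), with 4.39 in the DMSO list and 3.17 in the AVJ16 list. The same AVJ16 peak was the partner of the neighbouring DMSO peak, with an enrichment of 3.89. Close to the stop codon, the DMSO peak from nt 873 to 917 went with 4.42 and its partner with 3.42, a difference of −0.99. A second AVJ16 peak overlapped the same DMSO peak, with an enrichment of 3.84 and a difference of −0.57. The highest difference was at nt 527 to 546 (chr12:54241209-54241228), where the values were 3.25 with DMSO and 4.06 with AVJ16. In the next site, at nt 551 to 744 with 4 DMSO peaks, the highest value was lower with AVJ16, by a difference of −0.25. The next highest difference, 0.49, was at nt 9350 to 9397, beside the strongest site.

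Most shared peaks were lower with AVJ16 in each of the 3 stretches of the 3’UTR, but not around the large gap, where the 3 sites between nt 6750 and 8906 all had a higher maximum in the AVJ16 list, with differences of 0.36, 0.20 and 0.05. The median difference was −0.41 over the 17 shared peaks from nt 1 to 3604, −0.28 over the 12 from nt 3605 to 7208 and −0.48 over the 14 after that. Below 0 lay 15, 10 and 10 of them, respectively. With one maximum per site in place of single peaks, 19 of the 25 sites in both lists were lower with AVJ16 and 6 were higher, and the median difference was −0.37. Beyond the limit of 0.5, only 7 of these 25 sites were lower and 1 was higher. Nucleotide by nucleotide, 83.6% of the 1991 nt covered in both lists had the lower enrichment in the AVJ16 list. Shares by site and by nucleotide are not given for other genes, so these have no general share beside them. The median difference over all shared 3’UTR peaks was itself slightly below 0, at −0.07.

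Across all 3’UTR peaks the difference varied with the DMSO enrichment, so CBX5 was also set beside the 11742 shared 3’UTR peaks of similar DMSO enrichment. Of the 13 CBX5 peaks at 4 or more with DMSO, 11 were lower by more than 0.5 (84.6%, against 41.2% of such 3’UTR peaks), and their median difference was −0.68 against −0.37. From 3.5 to 4, 7 of 19 were lower (36.8%, against 13.5%), with a median of −0.36 against −0.05. From 3 to 3.5, none of 11 could be lower by more than 0.5, since AVJ16 peaks under 3 are not listed, and the median was −0.06 against 0.19. At each of these levels the median of CBX5 lay below that of the 3’UTR peaks. At 4 or more, 13 of 13 CBX5 differences were below 0, against 3590 of 4837 over the 3’UTR peaks. From 3.5 to 4 these counts were 15 of 19 against 1986 of 3692, and from 3 to 3.5 they were 7 of 11 against 938 of 3213. The −log10 p was lower with AVJ16 at 22 of the 43 pairs (51.2%, against 49.5% of all shared peaks). Its median was 40.4 with DMSO and 43.3 at the AVJ16 partners, against 17.0 and 17.1 over all shared peaks.

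Among the 4296 genes with a 3’UTR peak in the DMSO list and a MANE transcript, CBX5 had the most 3’UTR peaks, 52 against a median of 2, and in the AVJ16 list it ranked 5th. This is the count for which it was chosen. The 82 bound genes with a 3’UTR of 10000 nt or more had a median of 2.5 such peaks with DMSO. Per kb of 3’UTR, CBX5 had 4.81 DMSO peaks, and among the 3504 genes with a 3’UTR of at least 1 kb and a 3’UTR peak it ranked 198th, with a median of 0.986 over these genes. The 5 genes whose 3’UTR peak counts in the 2 lists were nearest to those of CBX5 were AMOT (45 and 50), NUCKS1 (44 and 54), SCD (41 and 56), SLC38A1 (41 and 60) and SLC7A1 (38 and 54). The measure was the distance between the log2 counts in both lists, from 0.22 for AMOT to 0.45 for SLC7A1. These genes had shorter 3’UTRs than CBX5, from 3690 nt in AMOT to 5907 nt in SLC38A1.

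At these 5 genes the differences lay near or above 0. Their median differences were 0.02 in AMOT, 0.10 in NUCKS1, −0.01 in SCD, 0.18 in SLC38A1 and 0.22 in SLC7A1, against −0.39 in CBX5. An AVJ16 peak overlapped 93.5% of the DMSO peaks in AMOT, 97.7% in NUCKS1, 92.9% in SCD, 95.3% in SLC38A1 and 92.1% in SLC7A1. All 5 genes lay above the 82.7% of CBX5. Of their 201 shared peaks, 8 were lower by more than 0.5 (3.98%) and 22 were higher (10.9%). Over all shared peaks the shares were 20.1% and 12.6%, so these genes lay below the general share of lower peaks, while CBX5 with 41.9% lay above it. Over all 346 genes with at least 10 shared peaks, the median of the medians was −0.02, and 18 genes had a lower median than CBX5. The AVJ16 peak counts took part in the choice of the 5 genes, and each of them had more 3’UTR peaks with AVJ16 than with DMSO. Their choice is therefore not independent of the differences and overlaps compared here. With 1 list per treatment, the difference between CBX5 and these genes was not tested.

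**Figure D3:**
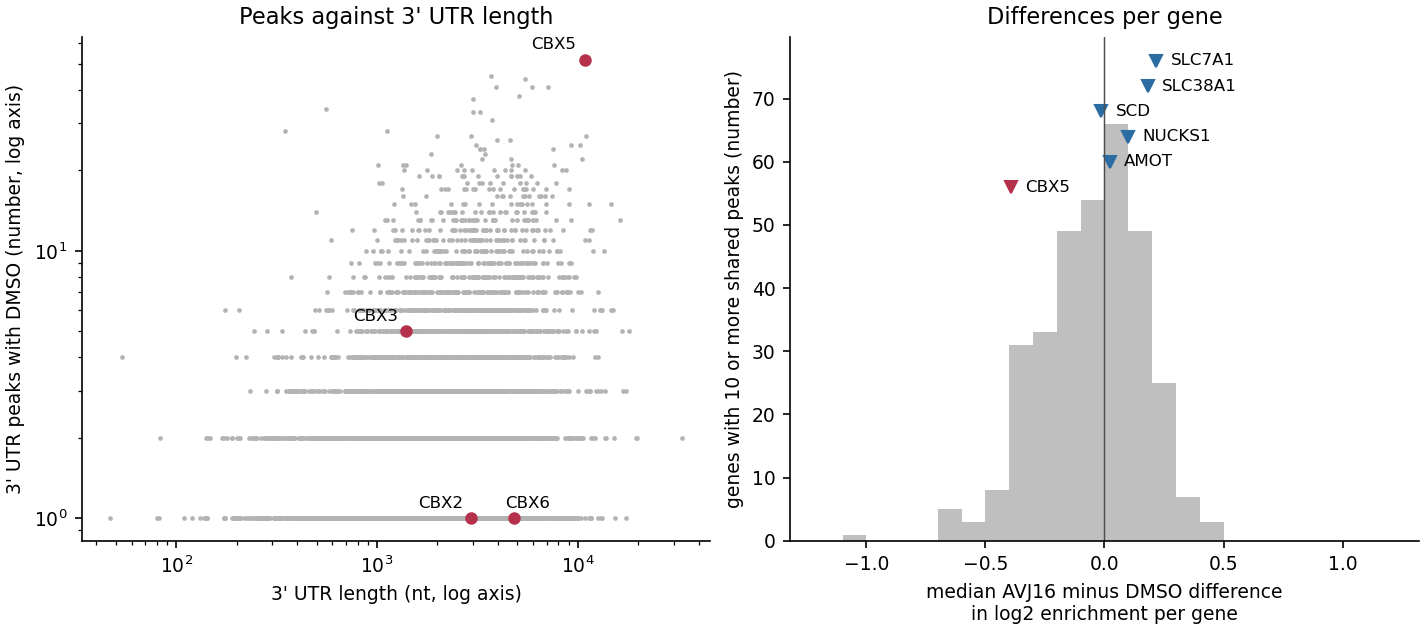
Left, the number of 3’UTR peaks with DMSO against the length of the 3’UTR in nt, both on log axes, 1 grey point per gene and red points for the bound chromobox genes. Right, the number of genes with at least 10 shared peaks by the median of their AVJ16 minus DMSO differences on the log2 scale, with triangles (height has no meaning) for CBX5 and the 5 genes most like it in peak counts. CBX5 stands at the top on the left with 52 peaks and at −0.39 on the right, where the 5 other genes lie between −0.01 and 0.22.

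CBX3, the gene of HP1γ, was the only other HP1 gene with peaks. CBX3 (ENSG00000122565) lies on chromosome 7, plus strand, between 26201162 and 26213607, and its 3’UTR of 1399 nt held 5 peaks in each list, or 3.57 per kb. They formed 2 sites, which covered 314 nt (22.4%) with DMSO and 253 nt (18.1%) with AVJ16, shares close to those of the 3’UTR of CBX5. All 5 DMSO peaks had a partner, against 66.2% of all DMSO peaks. In the first site, 196 to 401 nt after the stop codon, the middle peak had a log2 fold enrichment of 4.76 with DMSO and 4.22 with AVJ16, and the peaks on its sides had 3.41 and 3.77, and 3.30 and 3.57. In the second site the values were 3.93 and 4.00 for the short peak from nt 972 and 4.70 and 4.55 for the long peak from nt 1001. So 2 peaks were lower and 3 higher with AVJ16, and only the middle peak of the first site, with −0.54, passed the limit of 0.5. The −log10 p was lower with AVJ16 at all 5 peaks, against 49.5% of all shared peaks. It ran from 28.4 to 66.3 with DMSO and from 15.0 to 48.6 with AVJ16. The median length of the CBX3 peaks was 78 nt with DMSO and 45 nt with AVJ16, and the part of length in the −log10 p was not tested.

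**Figure D4:**
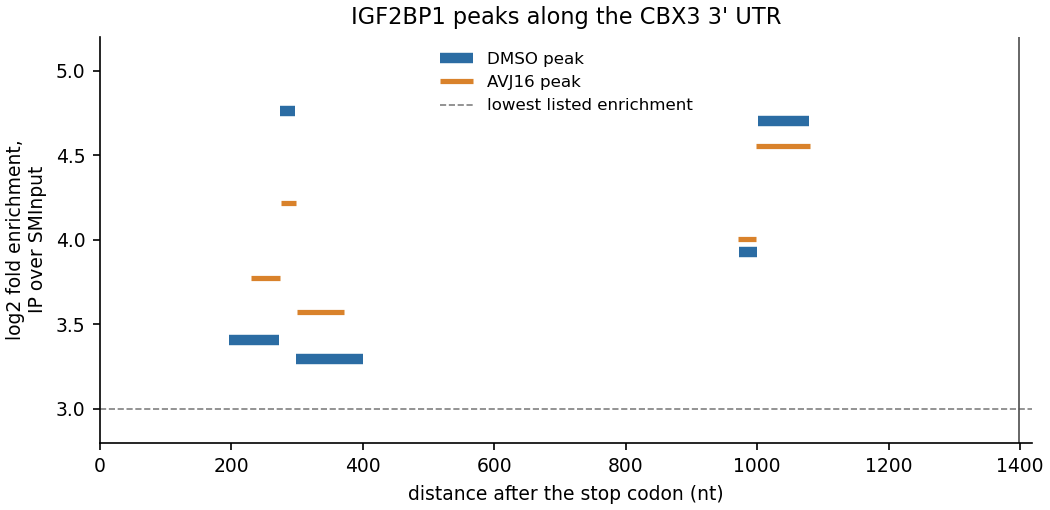
Peaks of both lists along the CBX3 3’UTR, with the distance after the stop codon in nt on the x axis, the log2 fold enrichment of IP over SMInput on the y axis and the end of the 3’UTR as a solid line. The peaks of the DMSO list (thick blue) and the AVJ16 list (thin orange) fall into the same 2 sites, and the largest step between paired bars, from 4.76 to 4.22, is in the first site.

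CBX1, the gene of HP1β on chromosome 17, had no peak past the thresholds in either list, although its 3’UTR of 1376 nt is about as long as that of CBX3. The 16 annotated pseudogenes of CBX1, CBX3 and CBX5 held no peak either. How reads that map both to a gene and to such a copy were treated is not given in the sources used here.

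The Polycomb genes held few peaks. CBX2, on the plus strand of chromosome 17, had 1 peak in each list near the end of its 3’UTR of 2941 nt, with a log2 fold enrichment of 3.52 with DMSO and 3.32 with AVJ16. These peaks overlapped and differed by −0.20. CBX6, on the minus strand of chromosome 22, had 1 DMSO peak, 1219 to 1277 nt after the stop codon, with an enrichment of 3.33. Its 3 AVJ16 peaks lay elsewhere in the 3’UTR of 4787 nt, at nt 468 to 537 (3.58) and as a touching pair at nt 4651 to 4735 (3.06 and 3.30), and none overlapped the DMSO peak. Over all peaks, 66.2% of DMSO peaks and 70.8% of AVJ16 peaks overlapped a peak of the other list, so a lack of overlap is common. With values between 3.06 and 3.58, all CBX6 peaks lay close to the lower limit of the lists. CBX7 and CBX8 had no peak past the thresholds. Per kb of 3’UTR, CBX2 had 0.340 peaks in each list and CBX6 had 0.209 with DMSO and 0.627 with AVJ16, all under the 3.57 of CBX3 and the 4.81 of CBX5 with DMSO. The level of each RNA is not part of the lists, and its part in these counts was not tested.

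**Figure D5:**
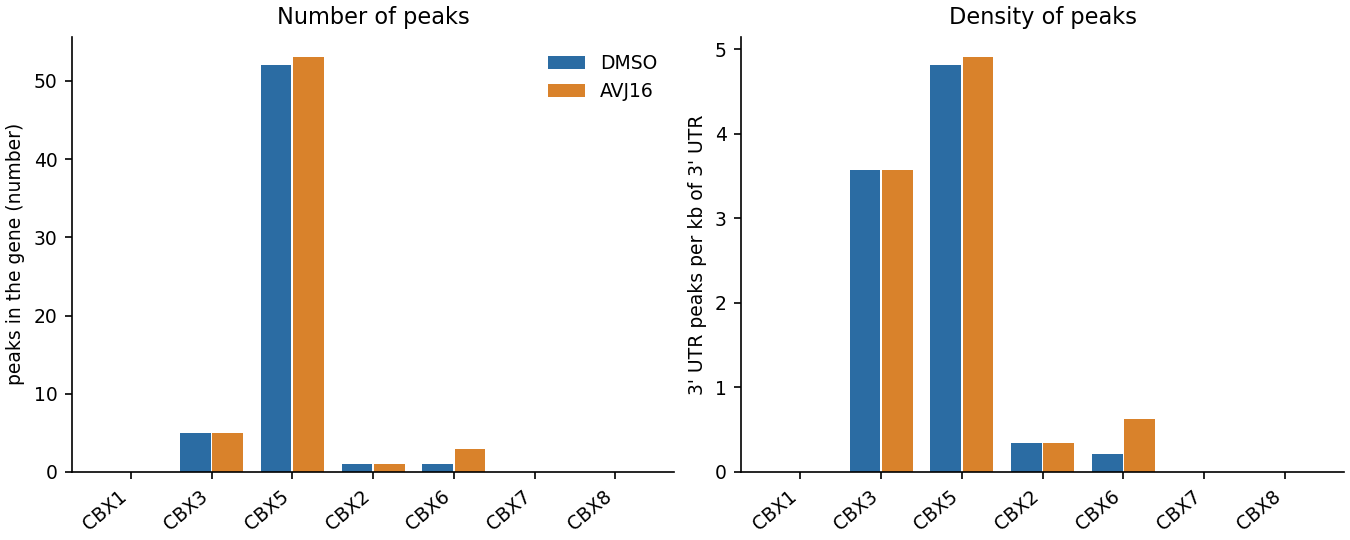
Number of peaks (left) and 3’UTR peaks per kb of 3’UTR (right) for the 7 chromobox genes, blue for DMSO and orange for AVJ16, with no error bars because each list pools both replicates. CBX5 holds 52 and 53 peaks and CBX3 holds 5 and 5, and per kb CBX3 reaches 3.57 against 4.81 and 4.90 in CBX5; CBX1, CBX7 and CBX8 have no bar because they held no peak.

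Genes that work with these proteins were counted next, from 2 lists of 20 genes each. Of the partners of HP1 in heterochromatin, 9 (45%) held a peak with DMSO and 9 (45%) with AVJ16, 8 of them in both. Of the other genes of Polycomb repressive complex 1, 14 (70%) held a peak with DMSO and 13 (65%) with AVJ16, 11 of them in both. Over all protein-coding genes, expressed or not, the shares were 25.8% and 23.2%. The most peaks among the HP1 partners were in LBR, the lamin B receptor (7 with DMSO and 10 with AVJ16), ADNP (5 and 10) and CHAMP1 (5 and 2). Among the Polycomb genes PCGF5 led with 14 and 9, followed by RYBP with 8 and 9 and BMI1 with 7 and 9, all subunits of the complex. The 52 peaks of CBX5 are no yardstick for these counts, since CBX5 was chosen for its number of peaks.

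The median differences of both lists of genes lay close to 0. The 17 shared peaks of the HP1 partners had a median difference of 0.03, with 1 lower and 3 higher by more than 0.5. The 29 shared peaks of the Polycomb genes had a median of −0.03, with 4 lower and 5 higher. Over all shared peaks, 20.1% were lower and 12.6% higher by that limit.

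The sequence around the CBX5 peaks was compared with that of all 3’UTR peaks in windows of 61 nt centred on each peak, which overlap where peaks are close. CAUH was present in 33 of the 52 CBX5 windows with DMSO (63.5%), against 62.7% of all 3’UTR windows in that list and 49.3% of all such windows in the CBX5 3’UTR. With AVJ16 it was present in 34 of 53 (64.2%), against 60.9% of all 3’UTR windows. CAUC was present in 26.9% of the CBX5 windows with DMSO, CAUU in 34.6% and CAUA in 19.2%, against 23.7%, 36.4% and 22.1% of all 3’UTR windows. With AVJ16 the shares were 22.6%, 43.4% and 17.0%, against 23.4%, 34.7% and 20.8%. GGAC, the core of the m6A sequence context, was present in 13.5% of the CBX5 windows with DMSO and in 12.4% of all 3’UTR windows, and with AVJ16 in 18.9% and 13.2%. Other motifs were present in few CBX5 windows. With DMSO, ACACA was present in 2 of 52 (3.85%, against 8.12%). UCCAG and CCNGUU were each present in 1 (1.92%, against 8.66% and 6.11%), and UCAUUC in 0 (against 3.33%). CGGAC and CUAACC, each in 1, lay above their general shares of 0.703% and 1.23%. With AVJ16, CCNGUU was present in 7.55%, against 6.11%. The paper names UUUCCGAA as the top motif of its own motif search in both treatments. Here only the exact letters were counted, which is a different measure. As exact letters, UUUCCGAA was present in 4 of the 16653 3’UTR windows with DMSO and in 2 of the 16594 with AVJ16, and it does not occur in the CBX5 3’UTR. All motifs were searched on the RNA strand alone. Uracil made up 35.0% of the bases in the CBX5 windows with DMSO, 31.7% in all 3’UTR windows of that list and 32.7% in the whole CBX5 3’UTR, and guanine 18.1%, 18.5% and 20.6%. A match describes the sequence under a peak and does not mark the bound base.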

How the data were processed

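IGF2BP1 eCLIP peak lists of H1299 cells with DMSO or AVJ16 were used, grouped by treatment as the sample titles give it. The authors trimmed reads with cutadapt, discarded repeat reads, aligned the rest with STAR without PCR duplicates and used CLIPper to call peaks; versions are not given in the sources used here. The −log10 p of each peak, capped at 400, and its log2 fold enrichment over SMInput were computed by the authors and deposited for both replicates together. The lists were normalized separately.

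Coordinates are 1-based on hg38, the build per the labels. Genes came from GENCODE release 44, whereas the Methods name an older release. A peak counted as shared with an overlap of at least 1 nt and was paired with the most overlapping peak. 3’UTR lengths are those of MANE transcripts without the stop codon. Calculations used Python 3.11.15, numpy 2.4.6, scipy 1.17.1 and matplotlib 3.10.9, and were tested on simulated data.

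The members, gene lists, motifs and the rule for named genes (all members, the 3 genes with the most DMSO peaks in each list of 20, and the 5 genes nearest to CBX5 in 3’UTR peak counts) were chosen with earlier results of these data known. 1 further gene of the family is not reported here. Alternatives were stricter thresholds, a larger overlap, other pairings, centring, a limit of 1, joined peaks and single nucleotides. Pairing that uses each peak once was added after seeing the data.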

Additional observations from a re-analysis of the deposited data

How the results depend on the processing

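The median difference at shared CBX5 peaks stayed below 0 under all alternatives tried, from −0.54 to −0.33. Keeping only peaks of 4 or more on the log2 scale left 13 CBX5 peaks with DMSO and 7 with AVJ16, 706 and 286 covered bases, shares of 30.8% and 71.4% with a peak in the other list, and 2 lower and 0 higher peaks among 4 pairs. Joining touching peaks left 31 and 32 sites. An overlap of 50% of both peaks lowered the shares to 65.4% and 64.2%. Centring on the median of all shared peaks gave 15 lower peaks in place of 18 and 2 higher peaks in place of 1. The median difference was then −0.33. A limit of 1 left 1 lower and 0 higher peaks. A −log10 p of at least 5 changed no value, since all CBX5 peaks passed it, and pairing from the AVJ16 peaks or with each peak used once moved no count beyond 1.5 times. No paired analysis was possible because the lists hold both replicates together, and the depth behind the peaks is unknown.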
